A study of Homo sapiens with 24 samples.

Results

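miR-24 was transfected into PC3, an established prostate cancer cell line that grows without androgen, and its RNA was compared with that of PC3 given a control miRNA. The members are the probes of the single two-colour array that carries this pair, 1 of 24 arrays in the series. Cy5 marked the miR-24 RNA and Cy3 the control. A log2 ratio above 0 therefore means more signal with miR-24. Of 42405 probes on the array, 27448 (64.7%) were well above background in at least 1 channel, and they covered 15080 genes. Matching PC3 arrays with miR-23b, miR-27b and miR-145, each over a control miRNA, served only as background. The labels give transfection by Lipofectamine RNAiMAX for all 4 arrays. The arm of the miRNA, its dose and the time after transfection are not given in the sources used here. The labels do not say whether the control RNA was common to these arrays. With 1 array for each miRNA there was no replicate check and no test, so genes were called by size, at a log2 ratio below -1.0 or above 1.0. The error beside each ratio is the technical error that the scanner software gives for 1 array, on the log2 scale.

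A miRNA is a short RNA that guides Argonaute proteins to messenger RNAs, mostly by pairing of its seed, bases 2 to 8, with sites in the 3′ untranslated region. Targets are then degraded or translated less, and many single targets change only a little. miR-24 lies in clusters with miR-23 and miR-27 family members, and its reported targets include cell cycle and DNA repair genes such as E2F2, MYC and H2AX. Since probes on the array are printed in the sense of the transcript, a probe can hold the site that pairs with a seed. The mature sequences follow because the ratios below are sorted by their seeds, written in capitals (NCBI RefSeq, GRCh38.p14).
miR-24-3p: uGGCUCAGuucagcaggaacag
miR-23b-3p: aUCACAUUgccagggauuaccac
miR-27b-3p: uUCACAGUggcuaaguucugc
miR-145-5p: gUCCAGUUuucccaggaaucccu
The 4 seeds differ from each other. The same miR-24-3p is encoded at 2 loci, MIR24-1 at chr9:95086064-95086085 on the forward strand and MIR24-2 at chr19:13836289-13836310 on the reverse strand. miR-23b-3p at chr9:95085265-95085287 and miR-27b-3p at chr9:95085505-95085525 lie beside MIR24-1.

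Probes that hold the site for the miR-24-3p seed were lower than other probes on the miR-24 array and not on the background arrays. The site searched was CTGAGCC on the probe strand, followed by an A for an 8-base match, and TGAGCC alone for a 6-base match. Among tested probes, 177 held the 7 or 8 bases, and 118 genes had such a probe. Their median log2 ratio was -0.25, against 0.06 in the 26992 probes with no match. With the 8-base match the median was -0.42 (43 probes), with 7 bases -0.22 (134 probes) and with 6 bases -0.11 (279 probes). The longer the match, the lower the median. On the miR-23b, miR-27b and miR-145 arrays the 177 probes had medians of 0.02, 0.04 and 0.05. Of the 177 probes, 36 (20.3%) were below -1.0 on the miR-24 array, where 11.3% of all tested probes were. All 36 were well above background in both channels. Above 1.0 were 17 of the 177 (9.60%), against 15.1% of the probes with no match. Of these 17, 10 were well above background in both channels. A probe dim in the control channel could enter through the miR-24 channel alone. The filter thus adds probes with high ratios, and the shares above 1.0 are not an even comparison. The difference of -0.31 between the medians with and without the site was -0.15 after normexp and loess, another background correction and normalization, -0.16 after loess alone and -0.13 with no filter on dim probes.

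**Figure D1:**
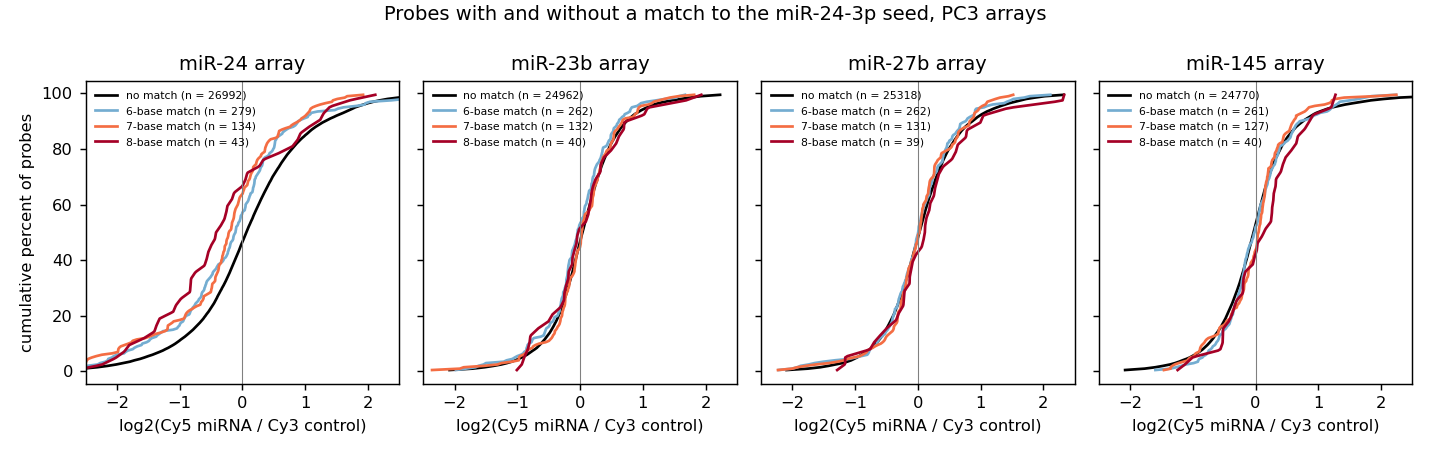
Cumulative percent of tested probes (y axis) against their log2 ratio of Cy5 miRNA over Cy3 control (x axis) on the 4 PC3 arrays, for probes with an 8-, 7- or 6-base match to the miR-24-3p seed and for probes with none. On the miR-24 array the curves with a match lie to the left of the curve without one (medians -0.42, -0.22 and -0.11 against 0.06), whereas on the other arrays the medians lie between -0.04 and 0.13.

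Seeds of the other miRNAs gave the low median on their own array. Probes with the site of miR-23b-3p had a median of 0.12 on the miR-24 array and of -0.26 on the miR-23b array. For miR-27b-3p the medians were 0.06 on the miR-24 array and -0.17 on the miR-27b array. For miR-145-5p they were 0.00 and -0.24 on the miR-145 array. The reverse complement of the miR-24-3p site, GGCTCAG, which has the same GC content and holds the letters of the seed itself, was held by 115 other probes, and their median on the miR-24 array was 0.12. Sites of the miR-24 5p arms, which share AGTAGGC, were held by 49 probes with a median of -0.11 on the miR-24 array. By length of the 5p match, the medians were -0.23 with 8 bases (14 probes), 0.06 with 7 (35 probes) and 0.11 with 6 (91 probes). The 8-base median of the 5p arms was thus low too, over few probes. Of the probes with the reverse complement, 14.8% were below -1.0 and 18.3% above 1.0 on the miR-24 array. Over all tested probes 11.3% were below -1.0. For the sites of miR-23b-3p, miR-27b-3p and miR-145-5p the shares below -1.0 were 13.3%, 8.65% and 14.2% on this array. For the 5p arms the share was 8.16%. These comparisons are medians and shares over probes of 1 array, and probes of a gene share its RNA.

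The following 30-base stretches (hg19, probe strand, site in capitals) come from 8 of the lowest probes with a site, taken among genes of the reference with both channels well above background and an ungapped probe. They are shown because they carry both the site and a low ratio. The position of the probes in exons or untranslated regions was not analysed here.
SELENOF, chr1:87328716-87328745, reverse strand: atataCTGAGCCtcaacagattgcctgctc
S100P, chr4:6698840-6698869, forward strand: tattcccctaggCTGAGCCtgctcatgtac
STRADB, chr2:202344834-202344863, forward strand: tgttaccttggaCTGAGCCagaatgtgatt
GMPPB, chr3:49760042-49760071, reverse strand: aggcatgtacatcCTGAGCCctgcagtgct
ANKRD13C-DT, chr1:70820666-70820695, forward strand: aaccctccggatCTGAGCCtcccgcagagg
SELENOH, chr11:57509631-57509660, forward strand: aactcaaattccCTGAGCCtcaagaggtgg
AGPS, chr2:178408390-178408419, forward strand: aCTGAGCCatactgttttccacaagggctc
SREBF2, chr22:42302199-42302228, forward strand: ccctgggcctgaCTGAGCCtgctcattgtt
SELENOF, a selenoprotein of the endoplasmic reticulum, had a signal of 22654 with the control miRNA and 2479 with miR-24, a log2 ratio of -3.19 ± 0.36. Its ratios on the miR-23b, miR-27b and miR-145 arrays were -0.04, -0.07 and -0.02. GMPPB, which makes the mannose donor GDP-mannose, went from 777 to 130 (-2.58 ± 0.32), with 0.19, 0.03 and 0.08 elsewhere. SELENOH, a nucleolar selenoprotein, gave 46609 and 8312 on this probe (-2.49 ± 0.31) and ratios from -0.26 to -0.20 on the background arrays. These genes were low on the miR-24 array only, among the 4 arrays. S100P, a calcium-binding protein, had -2.90 ± 0.34 on the miR-24 array but also -1.95 and -2.58 on the miR-23b and miR-27b arrays. STRADB, a pseudokinase partner of LKB1, had -2.76 ± 0.33 with an 8-base match, and -0.93, -1.16 and -0.52 elsewhere. AGPS, an enzyme of ether lipid synthesis, had -2.25 ± 0.29, also with 8 bases, and 0.32, 0.78 and -1.27 elsewhere. Of the 73 probes with a site that were within 0.5 of 0 on all background arrays, 11 (15.1%) were below -1.0 with miR-24, against 8.78% of all tested probes within 0.5 there.

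Over the genes tested on the miR-24 array, ratios were wider with miR-24 than with miR-23b, miR-27b and miR-145 in PC3. There were 1919 genes below -1.0 (12.7% of 15080) and 2351 above 1.0 (15.6%). The median over genes was 0.06 and the SD over genes 1.05, against SDs of 0.64, 0.69 and 0.82 on the miR-23b, miR-27b and miR-145 arrays. The genes and their probes were picked by signal on the miR-24 array, and the other arrays were scored on this set. A gene could enter through the miR-24 channel alone, so the SDs are not an even comparison. How much this choice widened the miR-24 ratios was not tested. Beyond 2.0 in size lay 440 lower and 575 higher genes, and the extremes were -5.70 and 5.39. Dim probes made up many of the higher genes: among genes well above background in both channels, 1814 were lower and 1445 higher. The split depended on the background correction, since 44.9% of called genes were lower here, 60.2% (1289 lower, 853 higher) after normexp and loess, and 58.9% (1423 lower, 992 higher) after loess without background correction. The software error had a median of 0.22 over genes, and the log2 ratios of probes printed 10 times had a median SD of 0.06 over spots. Where a called gene had more than 1 tested probe, the probes had opposite signs for 95 of 520 lower and 81 of 489 higher genes. No spot was saturated. The miR-23b and miR-27b arrays lay on the same slide as the miR-24 array, and the miR-145 array lay on another. The Cy3 control signals of the miR-24 array differed from those of the miR-23b, miR-27b and miR-145 arrays with SDs over probes of 0.55, 0.54 and 0.90 on the log2 scale.

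The lowest gene was FGFBP1. FGFBP1, a secreted carrier of fibroblast growth factors, had a signal of 9329 with the control miRNA and 179 with miR-24 (log2 ratio -5.70 ± 0.58). It was also low on the background arrays, at -3.36, -2.33 and -0.90. GLIPR1, a CAP-domain protein, went from 1287 to 30 (-5.43 ± 0.56). AGR2, a disulfide isomerase of secretory epithelia, went from 37731 to 1259 (-4.91 ± 0.51), with -0.51 on the miR-23b and -2.32 on the miR-27b array. AKAP12, a scaffold of protein kinases A and C, gave 21609 and 1115 on its brightest probe (-4.28 ± 0.45), and its 3 probes ranged from -4.28 to -2.63. VEGFC, a growth factor for lymphatic vessels, went from 22959 to 2049 (-3.49 ± 0.38) and was at -1.45 and -2.44 on the miR-23b and miR-27b arrays. CABP7, a calcium-binding protein, was at -3.72 ± 0.42. FGFBP1, GLIPR1, AKAP12, VEGFC and CABP7 were below -1.0 on both of these arrays too. XK, a membrane protein of the Kell blood group complex, and TMEM158, a membrane protein, were low mainly here. XK went from 2268 to 149 (-3.93 ± 0.42) and was between -0.54 and 0.10 elsewhere. TMEM158 went from 17461 to 1173 (-3.90 ± 0.42) and was between -1.05 and -0.14 elsewhere. The other low genes were LRRC38 (-4.03), COL4A6 (-3.97) and SCD (-3.61). On the miR-23b, miR-27b and miR-145 arrays LRRC38 was at -1.89, -0.30 and -0.04. COL4A6 was at -0.31, -1.54 and -1.30 there, and SCD was between -1.83 and -0.97.

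The ratio of MUC17, a membrane mucin, was -3.73 ± 0.41, but it rested on the control channel of this array. Its Cy3 signal was 983 here and 11.5, 7.11 and 5.8 on the miR-23b, miR-27b and miR-145 arrays, where neither channel was well above background. With the control channels of the 4 arrays pooled the ratio turned to 1.15. Of the 12 lowest genes, the 11 others had a Cy5 signal below all 4 control channels after quantile normalization. All of the 12 highest genes had a Cy5 signal above all 4 control channels. For the control channel of the miR-24 array itself, this was set by the choice of the genes. With ratios of this size, only a control channel that differs widely between arrays, as for MUC17, would give another outcome.

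The highest gene was CCN2. CCN2 (CTGF), a matricellular protein, had a signal of 211 with the control miRNA and 5674 with miR-24 (4.75 ± 0.49), and it was also high on the miR-23b and miR-27b arrays at 2.43 and 2.0. MAP2, a microtubule protein of neurons, went from 92.5 to 1412 (3.93 ± 0.42), with -0.60, -0.50 and 4.23 elsewhere. IL17RD, an inhibitor of fibroblast growth factor signaling, went from 181 to 2529 (3.80 ± 0.41), with 0.96, 1.70 and -0.75 elsewhere. ADSS1, the muscle form of adenylosuccinate synthase, went from 381 to 4678 (3.62 ± 0.40) and was between -0.63 and 0.25 elsewhere. ANGPTL4, a secreted inhibitor of lipoprotein lipase, went from 2832 to 31516 (3.48 ± 0.38). It stood at -3.42 and -2.63 on the miR-23b and miR-27b arrays and at 3.01 on the miR-145 array, so its direction differed between the 4 arrays. HMGB2, a chromatin protein, went from 1581 to 17568 (3.47 ± 0.38) and was at 2.84 on the miR-27b array. BMP4, a ligand of the TGF-beta family, went from 37.5 to 384 (3.36 ± 0.39), with 1.39, 1.39 and -0.57 elsewhere. PACSIN1, an endocytic adaptor, was at 3.44, with 0.71, 2.28 and 0.54 elsewhere. ASGR1, a lectin receptor of hepatocytes, was at 3.68 on its brighter probe and at 1.09 on the other. FAM72A (3.82), GSTT2 (3.79) and GSTT2B (3.34) have near-identical copies in the genome, so that the gene behind these probes is uncertain. The FAM72A probe was also at 1.05 on the miR-27b array.

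**Figure D2:**
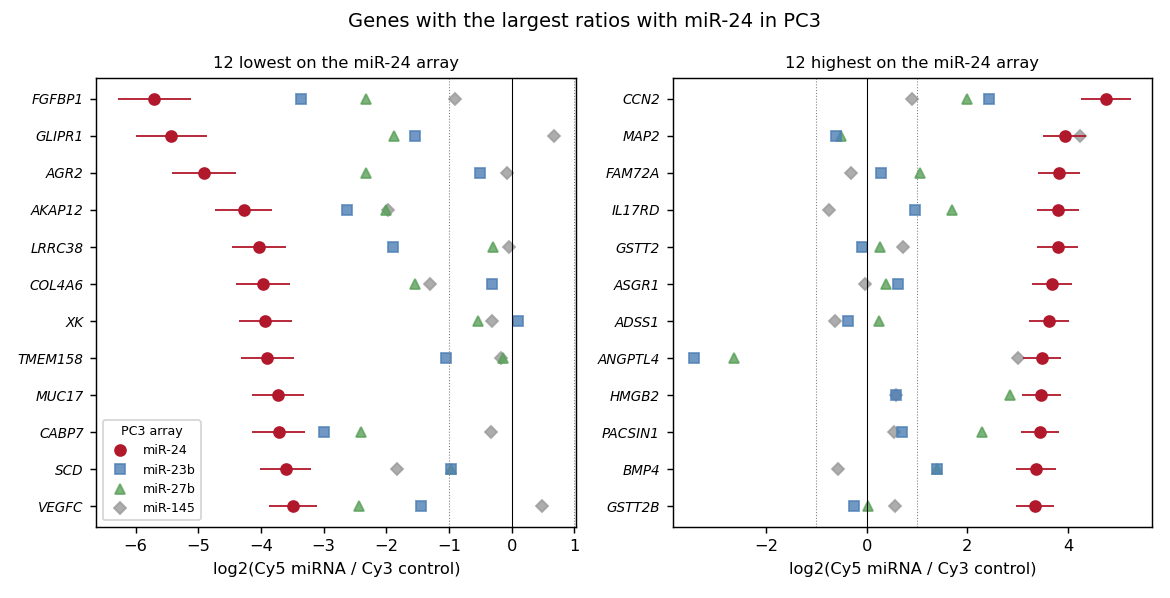
Log2 ratio of Cy5 miRNA over Cy3 control (x axis) of the 12 lowest and 12 highest genes of the miR-24 array on each of the 4 PC3 arrays, with bars for the software's error of the miR-24 value and dotted lines at -1 and 1. FGFBP1, GLIPR1, AKAP12, VEGFC and CABP7 lie below -1 on the miR-23b and miR-27b arrays as well, ANGPTL4 has the opposite sign there, and MUC17 has a point on the miR-24 array alone because it was not well above background on the others.

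A further set was past 1.0 with miR-24 and within 0.5 of 0 on all 3 background arrays. Of 5281 genes within 0.5 there, 593 (11.2%) were lower and 351 (6.65%) higher. The lowest was POLR1HASP, an antisense transcript of POLR1H, whose signal went from 288 to 26.1 (-3.46 ± 0.41). TAX1BP3, a PDZ-domain protein, went from 1304 to 136 (-3.26 ± 0.37). Next came SELENOF, given above, whose probes gave -3.19 and -3.03. C8orf82 went from 30917 to 3473 (-3.15 ± 0.36). CYB5R3, the cytochrome b5 reductase, was bright, at 90891 with the control miRNA and 10505 with miR-24 (-3.11 ± 0.35), and its second probe gave -3.01. POMGNT1, a glycosyltransferase of O-mannosyl glycans, went from 17989 to 2213 (-3.02 ± 0.35), and its second probe gave -2.54. KHDC1 (-3.01) and ANAPC15, a subunit of the anaphase-promoting complex (-2.99), followed. On the background arrays these 8 genes ranged from -0.48 (POMGNT1) to 0.47 (POLR1HASP). That range was fixed by the rule and is not a result.

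Of the higher genes of the set, METRNL, a secreted hormone-like protein, went from 700 to 5082 (2.86 ± 0.33). GAS6, the ligand of the TAM receptor kinases, went from 140 to 841 (2.59 ± 0.32). CFP, the complement factor properdin, went from 179 to 1076 (2.59 ± 0.32). C1QTNF12, also secreted, went from 78.2 to 459 (2.55 ± 0.32). TRIM58, a ubiquitin ligase, was the brightest of them and went from 3609 to 20558 (2.51 ± 0.31). MPPE1, a phosphoesterase that acts on GPI anchors, was at 2.38 and 2.94 on its probes. VWCE was at 3.18 on the brighter probe and at 0.33 on the other. LSMEM1 was at 2.87. Only 1 of the 40 genes of these sets, SELENOF, had a probe with the miR-24-3p site, but a 60-base probe covers a small stretch of a transcript. Among all tested genes 0.842% had one.

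**Figure D3:**
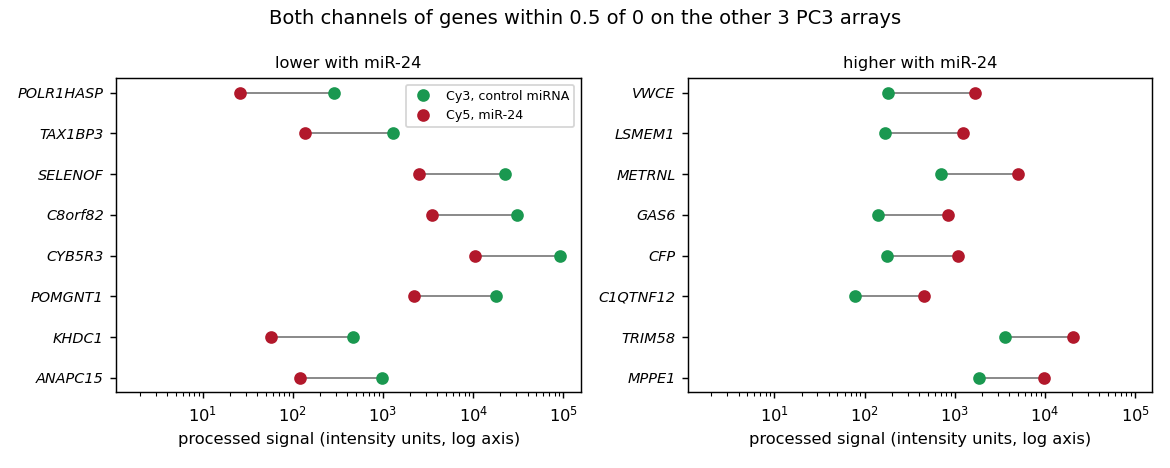
Processed signal (intensity units, log axis) of the Cy3 control channel and the Cy5 miR-24 channel for the 8 lowest and 8 highest genes of the miR-24 array that were within 0.5 of 0 on the other 3 PC3 arrays. SELENOF, C8orf82, CYB5R3 and POMGNT1 have the brightest control signals of the lower genes, from 17989 to 90891, and among the higher genes TRIM58 and MPPE1 are the brightest.

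Reported miR-24 targets in the cell cycle were not lower, whereas part of the other reported targets were. These lists name genes described as targets in other systems. Of 13 cell cycle and DNA repair targets, all measured in both channels, 0 were below -1.0 and 6 (46.2%) were above 1.0, where 15.6% of all genes were, with a median of 0.06, the same as over all genes. The median of the list rested on the choice of probe, and with the median over the probes of a gene it was 1.04, with 7 genes higher. E2F2, an E2F transcription factor, had signals of 330 and 252 (-0.39 ± 0.22), and CDK4, the G1 kinase, had 6545 and 4995 (-0.39 ± 0.21). MYC was at -0.10 ± 0.20 and BRCA1 at 0.03 ± 0.21. CCNA2, cyclin A2, went from 345 to 1271 (1.88 ± 0.27), and it was at 1.21 and 1.79 on the miR-23b and miR-27b arrays and at -1.02 on the miR-145 array. MCM4 and MCM10, helicase factors, were both at 1.27. CHEK1, the replication checkpoint kinase, was at 1.21, CDK1, the mitotic kinase, at 1.13 and AURKB, the Aurora B kinase, at 1.04. The remaining genes, CDCA7 (0.03), FEN1 (-0.24) and RRM2 (0.06), did not pass, but the second probe of RRM2 was at 3.73. The higher calls depended on the control channel and the background correction. With the control channels of the 4 arrays pooled, 1 gene was higher and 1 lower, with a median of -0.30, and after normexp and loess 3 were higher. The control signal of each of the 13 genes was highest on the miR-145 array, which lay on another slide. CCNA2 had control signals of 345, 244, 270 and 974 on the miR-24, miR-23b, miR-27b and miR-145 arrays. Those of MCM4 were 624, 436, 575 and 1480. All 13 genes were above 0 on the miR-27b array, with a median of 1.22, and the medians with miR-23b and miR-145 were 0.70 and -0.32.

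Of 22 other reported targets, 6 (27.3%) were below -1.0, where 12.7% of all genes were, and 0 above 1.0, with a median of -0.57. FSCN1, fascin, an actin-bundling protein and also a reported miR-145 target, went from 87746 to 19725 (-2.15 ± 0.28). It was at -3.57 on the miR-145 array and at 0.47 and 0.76 on the miR-23b and miR-27b arrays. INSIG1, a sterol sensor that retains SREBP in the endoplasmic reticulum, went from 2264 to 569 (-1.99 ± 0.27), with -0.34, 0.51 and 1.0 elsewhere. FURIN, a proprotein convertase, was dim at 92.6 and 27.5 (-1.75 ± 0.43). FAF1, a Fas-associated factor, went from 735 to 280 (-1.39 ± 0.24), and NET1, a guanine nucleotide exchange factor, from 8270 to 3276 (-1.34 ± 0.24). Both were above -0.5 on the miR-23b and miR-27b arrays, and NET1 was at -1.42 with miR-145. PTPRF, a receptor phosphatase, was at -1.05 on its brighter probe and at 2.08 on the other, so that the gene has no settled direction. Between -1.0 and -0.5 lay PAK4 (-0.84), CDKN2A (-0.75), TRIB3 (-0.69), APAF1 (-0.66), H2AX (-0.58) and TOP1 (-0.56). Of these, H2AX was at 0.75 on the miR-27b and at -1.36 on the miR-145 array. XIAP (-0.33), MEN1 (-0.28), ACVR1B (-0.10) and ST7L (0.04) were near 0. CASP9 (0.34), PTPN9 (0.36), GATA2 (0.45), CDKN1B (0.54), BCL2L11 (0.62) and DND1 (0.85) were on the high side. On the background arrays the list had medians of 0.06 (miR-23b), 0.32 (miR-27b) and -0.13 (miR-145). With the median over the probes of a gene in place of the brightest probe, 4 genes were lower, without NET1 and PTPRF. No probe of the 35 reported targets held the miR-24-3p site.

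**Figure D4:**
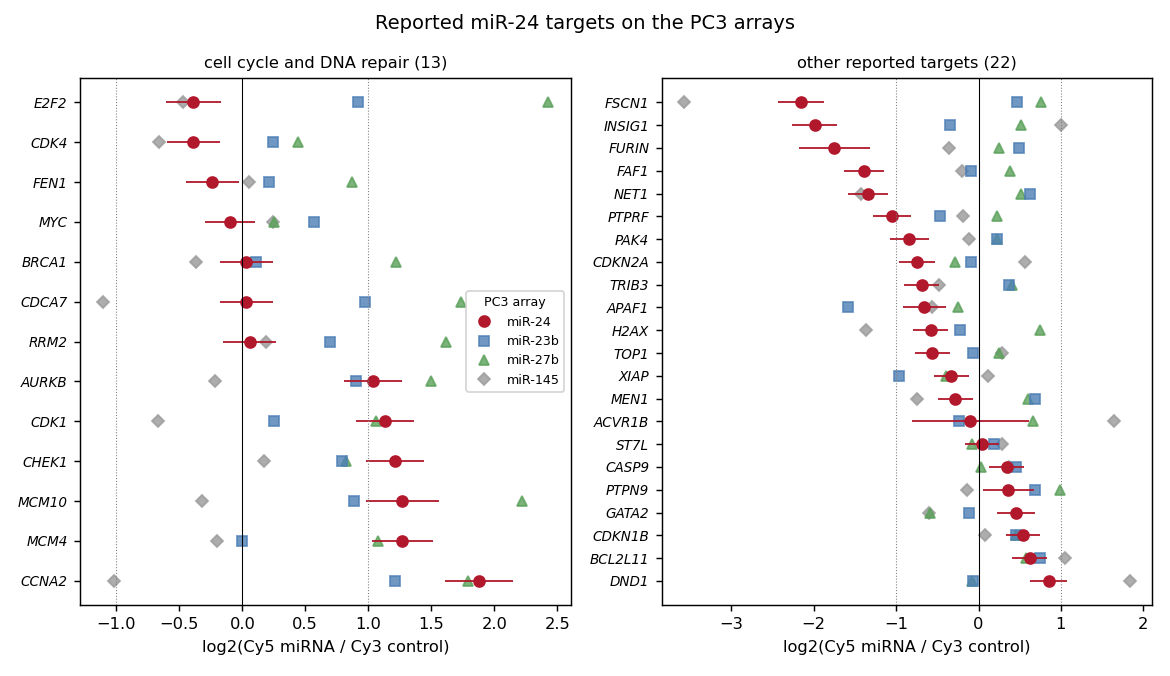
Log2 ratio of Cy5 miRNA over Cy3 control (x axis) of reported miR-24 targets on the 4 PC3 arrays, with bars for the software's error of the miR-24 value and dotted lines at -1 and 1. None of the 13 cell cycle and DNA repair targets lies below -1 on the miR-24 array and 6 lie above 1, while 6 of the 22 other targets lie below -1 and none above 1.

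Part of the lipid synthesis genes were lower with miR-24. Of 19 genes of cholesterol and fatty acid synthesis, 8 (42.1%) were below -1.0 against 12.7% of all genes, and 1 (5.26%) was above 1.0 against 15.6%, with a median of -0.82. Their medians were -0.34, -0.17 and -0.36 on the miR-23b, miR-27b and miR-145 arrays. SCD, the stearoyl-CoA desaturase, went from 2820 to 231 (-3.61 ± 0.40). It was also low on the miR-23b, miR-27b and miR-145 arrays, at -0.97, -0.97 and -1.83. The transcription factors of the pathway, SREBF1 and SREBF2, each had a probe below -1.0. SREBF1 went from 10438 to 1783 (-2.55 ± 0.31), but its second probe was at 0.24, so that the gene has no settled direction. SREBF2 went from 1152 to 244 (-2.24 ± 0.29) on a probe that holds the 7-base miR-24-3p site. On the miR-23b, miR-27b and miR-145 arrays that SREBF2 probe was at -0.85, -0.94 and -0.03. INSIG1 (-1.99), FASN (-1.94), ACACA (-1.29), DHCR7 (-1.24) and HMGCS1 (-1.04) were also below the limit. ELOVL6, a fatty acid elongase, was at 1.33. Over the alternatives of processing, from 7 to 9 genes of the list were lower and the median lay between -0.88 and -0.36, the last with the mean of the other arrays of the design subtracted.

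Part of the genes of mitosis and DNA replication were higher. Over all genes, 15.6% were above 1.0 and 12.7% below -1.0. Of 24 genes of G2 and mitosis, 12 were above 1.0 and 1 (4.17%) below -1.0, with a median of 0.96. The same list had a median of 1.05 on the miR-27b, 0.26 on the miR-23b and -0.76 on the miR-145 array. TOP2A, topoisomerase II alpha, went from 732 to 3841 (2.39 ± 0.30), CENPF, a kinetochore protein, from 9423 to 40693 (2.11 ± 0.28), and TTK, a spindle checkpoint kinase, from 378 to 1453 (1.94 ± 0.27). CCNB1, cyclin B1, was the exception, at -1.13 and -1.55 on its probes, and it was at 0.81 on the miR-27b array. Of 30 DNA replication genes, 11 (36.7%) were higher and 1 (3.33%) lower. The median was 0.47, against 0.23, 1.08 and -0.22 on the miR-23b, miR-27b and miR-145 arrays. POLE2, a polymerase epsilon subunit (1.78), and TYMS, thymidylate synthase (1.5), were highest. With pooled control channels 2 were higher and 2 lower, and the median was 0.12, whereas 9 mitotic genes were higher. MCM4 and MCM10 of this list had their highest control signal on the miR-145 array, as given above. PRIM1, a primase subunit (-1.18), was the lower one. Of 23 genes of homologous recombination and damage signaling, 8 (34.8%) were higher and 0 lower. The median was 0.32, against 0.10, 0.75 and -0.16 on the miR-23b, miR-27b and miR-145 arrays. BLM, the Bloom helicase, was at 1.92, XRCC2 at 1.42 and CHEK1 and BARD1 at 1.21. After normexp and loess 3 genes were higher.

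Of 25 measured G1 regulators, 3 (12.0%) were lower and 5 (20%) higher, shares near those over all genes (12.7% and 15.6%), and after normexp and loess 1 was lower and 3 higher. E2F1 was at -1.68 ± 0.26, CDKN2B, a CDK4/6 inhibitor, at -1.65 ± 0.29 and E2F4 at -1.18 ± 0.24. CDK6, a G1 kinase, went from 2197 to 9543 (2.12 ± 0.28), and was at 1.74 on the miR-23b array. CCNE1, cyclin E1, was at 1.88 and RBL2, a retinoblastoma family protein, at 1.67.

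PC3 lacks functional p53. Of 13 p53 target genes, 5 (38.5%) were above 1.0, against 15.6% of all genes, and 0 below -1.0, with a median of 0.76 against 0.06, 0.03 and -0.16 on the background arrays. FAS, a death receptor, had a dim control signal of 46.9 and a miR-24 signal of 370. It was at least 7.90-fold higher, and was also high on the background arrays (1.41, 2.15 and 3.11). A bound of this kind sets the bright channel against the lowest signal well above background in the dim channel, or the dim signal itself where that is larger. GADD45A, a stress sensor, went from 4652 to 14716 (1.66 ± 0.25), with -0.86, -0.32 and 0.22 elsewhere. SESN1, a sestrin, was at least 2.69-fold higher over a dim control signal. DDB2 was at 1.25 and XPC at 1.02. After normexp and loess 3 genes were higher, with a median of 0.42.

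Of 27 apoptosis genes, 5 (18.5%) were lower and 4 (14.8%) higher, against 12.7% and 15.6% of all genes, with a median of -0.12. BIRC3, an inhibitor of apoptosis, was at -1.92, and BAD at -1.53, with its second probe at -0.47. BMF and FAF1 were at -1.44 and -1.39. The control signal of BCL2 (11.8) was not well above background, and it reached 91.4 with miR-24, so that it was at least 4.74-fold higher. HRK, a BH3-only protein, was at 2.04, BID at 1.53 and PMAIP1 (NOXA) at 1.41.

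The TGF-beta and activin list had 8 higher (32.0%) and 2 lower genes (8.0%) of 25, against 15.6% and 12.7% of all genes. Its median was 0.36, against 0.23, 0.25 and -0.31 on the miR-23b, miR-27b and miR-145 arrays. CCN2, given above, and SMAD7, the inhibitory SMAD, led the higher ones. SMAD7 went from 198 to 844 (2.09 ± 0.28), and was between -0.80 and -0.41 on the background arrays. TGFBR3, betaglycan (1.94), the ligand TGFB2 (1.85) and SKIL, a SMAD corepressor (1.79), were higher as well. SMAD2, a receptor-activated SMAD, was at -1.93 ± 0.30 and TGFB1 at -1.06 ± 0.23. After normexp and loess 4 were higher and 0 lower.

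Of 18 genes of the actin cytoskeleton and its regulators, 5 (27.8%) were lower and 3 (16.7%) higher, against 12.7% and 15.6% of all genes, with a median of -0.10. Beside FSCN1 and NET1, LIMK1, a kinase of cofilin, was at -1.93, ARHGDIA, a GDP dissociation inhibitor, at -1.83 and ACTB at -1.15. ARHGDIA was between -0.04 and 0.18 on the background arrays. PAK1, a Rac effector kinase, was at 2.17, TPM1, a tropomyosin, at 1.52 and PAK2 at 1.06. Of 16 epithelial and mesenchymal genes, 2 (12.5%) were lower, SPARC (-2.05) and CLDN7 (-1.29), and 1 (6.25%) higher, OCLN (1.97). Of 24 receptor kinase and MAPK genes, 3 (12.5%) were lower, ERBB2 at -1.24, HRAS at -1.09 and MKNK2 at -1.04, and 1 (4.17%) was higher, SPRED1 at 1.04. The lower shares of these last lists were near the 12.7% of all genes.

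Interferon-stimulated genes were high with miR-145 and not with miR-24. Of 19 measured genes, 5 (26.3%) were lower and 1 (5.26%) higher with miR-24, against 12.7% and 15.6% of all genes, and after normexp and loess 3 were lower and 0 higher. The median was -0.33 on the miR-24 array and 4.91 on the miR-145 array. IFI44L was at -2.03 and OAS2 at -1.86, although another OAS2 probe was at -0.03. The higher gene, RSAD2, was dim in the control channel, at 9.83 against 29.1 with miR-24 (at least 1.51-fold higher), and its log2 ratio turned to -0.47 with pooled control channels and to -0.61 with the mean of the other arrays subtracted. With the mean of the other arrays of the design subtracted, which include the miR-145 arrays, 12 genes were lower. Of 15 genes of the ATF4 and unfolded protein response, 5 (33.3%) were higher and 1 (6.67%) lower, with a median of 0.29. SLC7A11, the cystine transporter, was at 2.22, ATF3 at 1.93, PSAT1 at 1.32 and DDIT3 at 1.20, while XBP1 was at -1.27.

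Among 13 genes of the miRNA machinery, TNRC6A, a partner of Argonaute, was at 1.74 and the other 12 were between -1.0 and 1.0. Genes often used as references did not all stay level. Of 13, 3 (23.1%) were lower and 1 (7.69%) higher, against 12.7% and 15.6% of all genes. PGK1 went from 138678 to 31113 (-2.16 ± 0.28), HPRT1 was at -1.66, ACTB at -1.15 and TFRC at 1.14, while GAPDH was at 0.20 and RPLP0 at -0.05. Reported targets of the other miRNAs had medians near 0 on the miR-24 array, at -0.07 (miR-23b, 6 genes), -0.05 (miR-27b, 7 genes) and -0.12 (miR-145, 10 genes). Of the first 2 lists, HMGB2 and CYP1B1 (2.12) were higher and PPARG (-1.57) was lower.

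**Figure D5:**
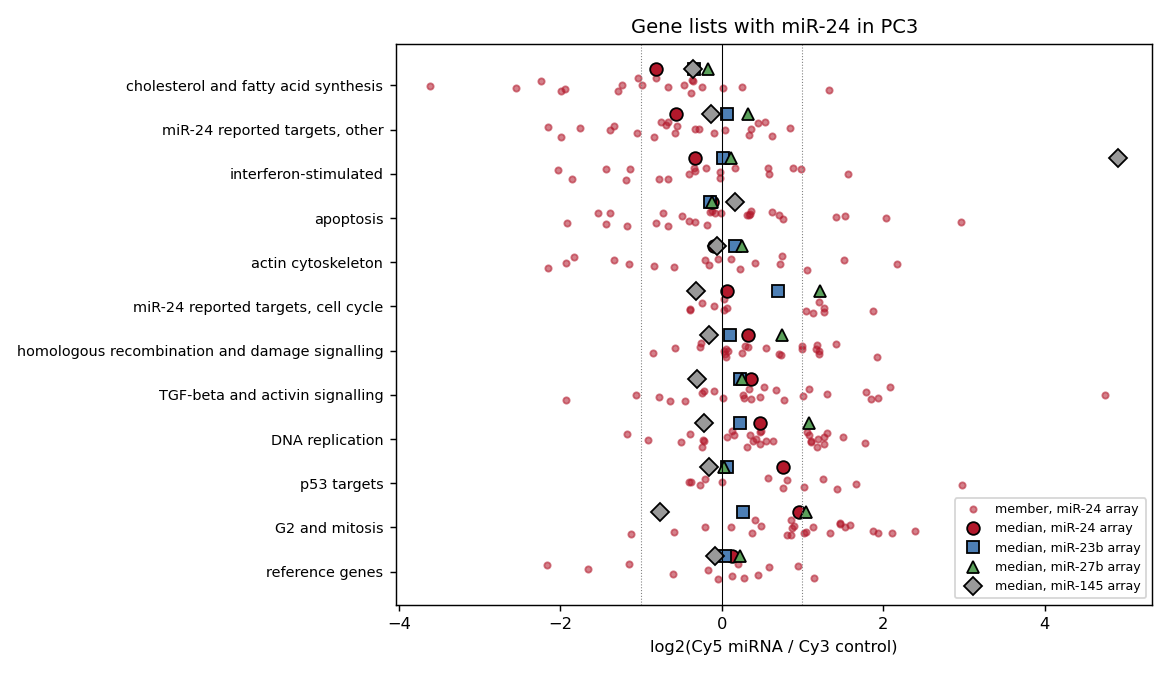
Log2 ratio of Cy5 miRNA over Cy3 control (x axis) of each measured member of 12 gene lists on the miR-24 array (small points, spread at random along the y axis) and the median of each list on the 4 PC3 arrays (large symbols). The lists of cholesterol and fatty acid synthesis (-0.82) and of G2 and mitosis (0.96) have the lowest and the highest median of these 12 on the miR-24 array, and the interferon list stands at 4.91 on the miR-145 array.

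The cells carried the genes known for PC3. KRT8, KRT18, VIM, CAV1, CD44 and PLAU were all well above background in both channels, and none passed 1.0. Of luminal prostate genes, KLK3 had a control signal not well above background and KLK2 was dim at 60.2 and 65.5. FOLH1 (PSMA) went from 745 to 115 (-2.69 ± 0.33). The host transcripts of the endogenous miR-24 loci, AOPEP and MIR23AHG, were at 0.42 and 0.44. The array does not measure the transfected miRNA itself.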

How the data were processed

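For every array the files hold scanner data, deposited by the authors, from Agilent Feature Extraction 10.7.3.1. Its deposited intensity values had been background-subtracted and dye-normalized by the software, and its deposited log ratio, on the log10 scale, is Cy5 over Cy3. From it the log2 ratio was computed. The deposited series matrix held the same values. Probe coordinates are those of the array's annotation (hg19).

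Control spots and spots with outlier flags (478 of 58717 on the miR-24 array) were left out, and spots of a probe were averaged. A probe was tested if at least 0.5 of its spots were well above background in 1 channel or both. Of 42405 probes, 28423 were matched to 20517 genes by RefSeq accession or symbol, and each gene took its brightest tested probe. Dyes were not swapped, so dye bias and treatment cannot be told apart on 1 array. The number of arrays limits the precision.

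The text names the 12 lowest and 12 highest genes well above background in both channels, the 8 lowest and 8 highest of those also within 0.5 on the 3 background arrays, all reported miR-24 targets, and members past 1.0 of other lists, up to 4 of each described in order of size and further ones by value. Markers, host transcripts and genes named for a seed site fall outside this rule and were named after their values were seen. Some genes are not reported here and were left out of the lists and sequences. Members and lists were chosen with earlier results of these data known. Alternatives changed the background correction, normalization, control channel, filter, probe rule and limits. limma 3.58.1 in R 4.3.3 ran normexp (offset 50) and loess, and Python 3.11.15 the rest. The code that makes the calls was checked on simulated arrays.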

Additional observations from a re-analysis of the deposited data

How the results depend on the processing

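The count of genes below -1.0 (1919) ranged from 1289 to 2478 over the alternatives that kept the limit, and was 3742 at a limit of 0.5 and 972 at 1.5. The count above 1.0 (2351) was 853 after normexp and loess, 992 after loess without background correction, 1448 with both channels well above background, 4543 at 0.5 and 1222 at 1.5. Of the genes lower and within 0.5 on the background arrays (593), there were 1258 at a limit of 0.5, 276 at 1.5 and 237 with a background limit of 0.3. Of the higher ones (351), there were 1058, 88 and 102 at these limits, 551 without the miR-27b array and 542 without the miR-145 array. The series matrix gave the same counts. The median of probes with a miR-24-3p site minus that of probes without was -0.31, and in alternatives chosen after seeing the data -0.15 after normexp and loess, -0.16 after loess alone, -0.25 with pooled control channels and -0.13 with no filter. Of 162 named genes past 1.0, 121 stayed past it after normexp and loess, and 3 changed sign: MUC17 (1.15 with pooled control channels), PTPRF (0.52 as the median of its probes) and RSAD2 (-0.61 with the mean of other arrays subtracted, -0.47 with pooled control channels). The causes were not tested. No paired analysis was possible because each condition has 1 array.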

Other observations

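SELENOF, SELENOH, POMGNT1 and GMPPB stood among the lowest genes described above. The families they belong to were looked up after their values had been seen, so these lists are a description. The genes that prompted each list are counted in its share below -1.0 and raise it. The shares are therefore no support for a change of the family. Of 22 measured selenoprotein genes, 6 (27.3%) were below -1.0 and 3 (13.6%) above 1.0, against 12.7% and 15.6% of all genes, with a median of 0.16. After normexp and loess 4 were lower and 0 higher, and after loess alone 5 and 0. SELENOF (-3.19), SELENOH (-2.67), TXNRD2, mitochondrial thioredoxin reductase (-2.58, dim at 114 and 19.0, and -0.63 after normexp and loess), and GPX1, glutathione peroxidase 1 (-1.64), were low on the miR-24 array and between -0.32 and 0.15 on the background arrays. SELENON was at -2.64 on its brighter probe and at 0.31 on the other. The remaining lower gene, SELENOP, stayed past the limit after loess alone. It did not after normexp and loess, with pooled control channels or with the mean of the other arrays subtracted. The higher genes were SELENOM (1.07), TXNRD3 (1.21) and GPX3, which had a control signal not well above background and was at least 3.15-fold higher. GPX4 (0.40), SELENOW (0.35) and SELENOK (0.15) did not pass 1.0.

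Of 21 measured genes that make mannose donors or build O-mannosyl glycans, 8 (38.1%) were below -1.0, against 12.7% of all genes, and 0 above 1.0, with a median of -0.69, against 0.18, 0.02 and -0.12 on the miR-23b, miR-27b and miR-145 arrays. GMPPB (-2.58), which makes GDP-mannose, the related GMPPA (-2.46), and MPI, mannose phosphate isomerase (-1.97), each have 1 tested probe. DPM3, a subunit of dolichol phosphate mannose synthase, went from 14425 to 1980 (-2.87), but its second probe was at 0.66, and MPDU1 (-2.62) had a probe at 0.71. After normexp and loess 6 genes of the list were lower and the median was -0.37. DAG1, dystroglycan, which carries these glycans, was at -0.68.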
